A study of Mus musculus with 4 samples.

Results

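The genes described here encode collagens, proteoglycans and other proteins of the extracellular matrix, enzymes that remodel the matrix, and markers of hepatic stellate cells. A list of 40 such genes was matched to every probe set that the platform annotation names with exactly 1 gene symbol. It found 91 probe sets of 39 genes, out of 34958 probe sets of 18194 genes with 1 symbol, and Fbn1 (fibrillin 1) is not analysed here. Of these, 49 probe sets of 28 genes were at a log2 level of 4 or more on at least 1 array and were tested, out of 14343 tested probe sets in all.

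Hepatic stellate cells lie between hepatocytes and the sinusoidal endothelium, store vitamin A, and are the main source of fibrillar collagen when the liver scars. Activated stellate cells become contractile cells that make smooth muscle actin, a change driven largely by TGF-β and PDGF. In the healthy liver most matrix around the sinusoids is a loose basement membrane, and hepatocytes themselves secrete fibronectin and other matrix proteins.

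Livers of male C57BL/6J mice were measured on 4 arrays, with 1 pooled RNA sample per group. The mice entered the diets at 8 to 12 weeks of age and ate either a low-fat food (10% of energy from fat, 16 mice) or a high-fat food (45%, 20 mice) for 20 weeks, both made with palm oil in place of lard. In the last week they received 2 intraperitoneal injections of clodronate liposomes, which kill phagocytes, or of phosphate-buffered saline (PBS). The groups were low-fat with PBS, low-fat with clodronate, high-fat with PBS and high-fat with clodronate, each a pool of RNA from 8 mice on the low-fat or 10 mice on the high-fat diet. Because the control injection was PBS, effects of liposomes, clodronate and phagocyte loss cannot be told apart. The spread between mice was not measured. With 1 pool per group, p-values rest partly on how far the effect of 1 factor differed between the settings of the other. That difference may be technical or a true dependence of 1 factor on the other, which cannot be told apart. The SD given with an averaged effect measures the same difference. The larger part of the variance behind each p-value came from other probe sets of like level, through the prior used by limma. In whole liver, fewer cells of a type and less RNA per cell cannot be told apart.

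The liver and the depletion were visible in the marker lists. The summed level of 10 hepatocyte markers, on the log2 scale, lay between 16.95 and 16.99 over the arrays. Of these markers, 0 passed the test for either effect (limma with Benjamini-Hochberg adjustment, with 0 and 1 at an unadjusted p under 0.05 for diet and clodronate). Of 14 Kupffer cell markers, 12 fell after clodronate (limma, Benjamini-Hochberg adjusted p under 0.05), and their summed level on the log2 scale went from 13.08 to 10.60 in the low-fat pools and from 12.98 to 10.49 in the high-fat pools. Clec4f, which defines these cells, was at 1.92 and 1.88 after clodronate. Array medians over all probe sets, tested or not, lay between 2.73 and 2.79. Levels are GCRMA log2 values, which can be compared between arrays but not between probe sets. Values are given below in the order low-fat PBS, low-fat clodronate, high-fat PBS, high-fat clodronate.

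Most of these probe sets varied little over the 4 arrays, as most of all tested probe sets did, and Tpm2 varied most. Of 49 tested probe sets, 44 (89.8%) stayed within a 1.5-fold range over the arrays, with levels under 4 taken as 4, against 85.8% of all tested probe sets. The median range was 0.33 (log2) for the matrix and stellate probe sets and 0.29 for all. Tpm2 differed by up to 2.45 between arrays, and no probe set of another gene on the list by more than 0.90. Besides Tpm2, probe sets of Lum, Timp2 and Pdgfra exceeded a 1.5-fold range.

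**Figure D1:**
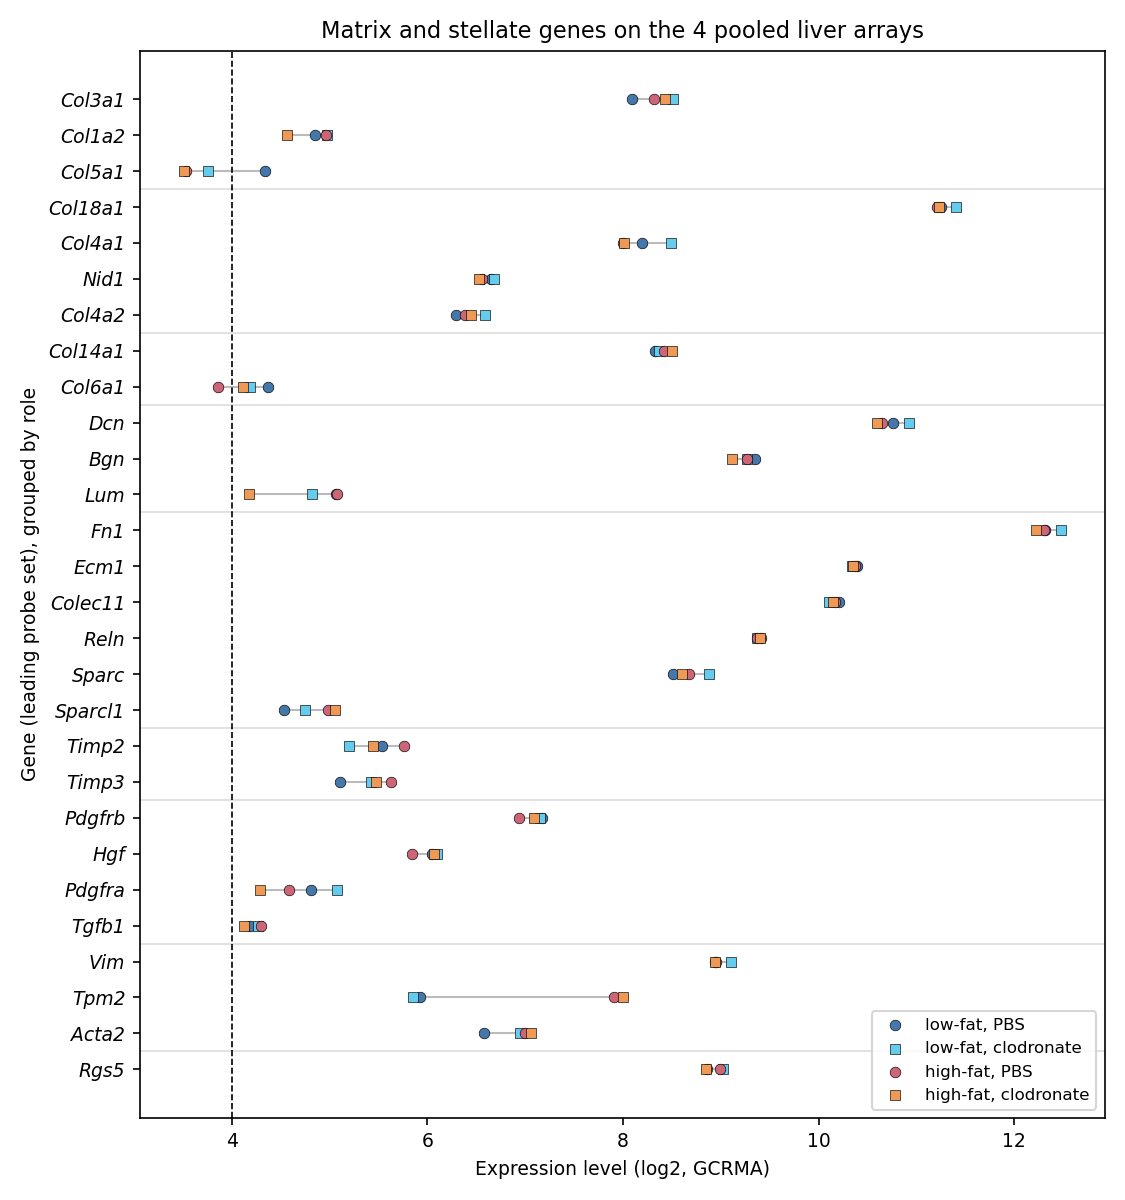
Levels (log2, horizontal axis, dashed line at 4) of the leading probe set of each of the 28 tested genes, grouped by role, with 1 point per pooled array. The points of most genes overlap, while those of Tpm2 form a low-fat pair at 5.85 and 5.93 and a high-fat pair at 7.91 and 8.01.

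Tpm2 encodes β-tropomyosin, which binds along actin filaments in contractile cells. Its leading probe set, the one with the highest mean, was at 5.93, 5.85, 7.91 and 8.01. Both high-fat pools were above both low-fat pools, with no overlap. The diet difference was 3.96-fold with PBS and 4.46-fold with clodronate. Averaged over the injections, it rose by 2.07 ± 0.12 on the log2 scale (SD of the differences under the 2 injections, n = 2; limma with Benjamini-Hochberg adjustment over all tested probe sets, adjusted p = 0.0116). The next brightest probe set was at 4.90, 4.73, 7.18 and 6.86, a difference of 4.88-fold and 4.37-fold. It rose by 2.21 ± 0.11 (n = 2; limma, Benjamini-Hochberg adjusted p = 0.0124).

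Among the 14343 tested probe sets, ordered from the most raised to the most lowered by diet, these ranked 5 and 4, and by p-value 7 and 13. Neither passed for clodronate (limma, Benjamini-Hochberg adjusted p = 1). The leading one differed by -0.08 between the low-fat pools and by 0.09 between the high-fat pools, and the other by -0.16 and -0.32. The remaining probe sets of Tpm2 were dim, 1 at 3.62, 3.07, 3.94 and 4.02 and the other between 1.46 and 1.66, at or near the floor on every array. The call depended on the variance model and on the filter. Without a prior variance that depends on the mean, limma gave an adjusted p = 0.41 for each of the called probe sets and called 0 of all probe sets (1299 at an unadjusted p under 0.05), and without a filter on low values the adjusted p = 0.0503.

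Across all tested probe sets, 0.188% rose and 0.23% fell with diet at an adjusted p under 0.05. That split was 27 up and 33 down. It became 235 up and 124 down when each array was centred on the median of its tested probe sets. After quantile normalization it was 144 and 90. Among the 49 probe sets of the list, 2 rose, those of Tpm2, and 0 fell (limma, with 6 at an unadjusted p under 0.05). Besides Tpm2, the probe sets under 0.05 before adjustment belonged to Fn1, Dcn and Col4a1, and the lowest adjusted p outside Tpm2 was 0.424 (limma). The share with an unadjusted p under 0.05 was 12.2% on the list and 10.6% of all. The list share includes a further, dim Tpm2 probe set (limma, unadjusted p = 0.037), at 4 or more only in the high-fat clodronate pool. In a fit with 1 probe set per gene, 3 of 28 on the list and 1141 of 8650 in all were under 0.05 (limma, unadjusted).

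Other contractile genes did not pass the test. Acta2, the smooth muscle actin of activated stellate cells, was at 6.58, 6.95, 7.00 and 7.06, lowest in the low-fat PBS pool (diet effect 0.27 ± 0.21, n = 2; limma, Benjamini-Hochberg adjusted p = 0.60). This probe set carries the suffix _s_at, which marks probes shared with other transcripts. Desmin (Des), an intermediate filament of stellate and muscle cells, stayed between 1.81 and 3.14, and Tagln, an actin-binding protein of smooth muscle, between 3.60 and 3.97, too dim to compare. Vim, vimentin, an intermediate filament of mesenchymal cells and leukocytes, was at 8.94, 9.11, 8.96 and 8.94. Its 3 probe sets had clodronate differences between 0.17 and 0.41 with low-fat food and between -0.16 and 0.08 with high-fat food.

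The tropomyosins Tpm1, Tpm3 and Tpm4 had diet differences of 0.12, 0.14 and -0.26 with PBS and of 0.24, 0.00 and -0.43 with clodronate, and 0 of the 3 were called (limma, with 1 at an unadjusted p under 0.05). Mylk, myosin light chain kinase, differed by 0.34 and 0.22, and Cald1, caldesmon, by -0.06 and -0.01. All 10 skeletal muscle markers, among them Ckm and Acta1, were under 4 on all 4 arrays, with a summed level between 5.53 and 5.67. Of the 13 tested clock genes, which follow the time of day, 2 rose with diet, Dbp and Usp2 (limma, Benjamini-Hochberg adjusted p under 0.05), and 13 were at an unadjusted p under 0.05. Dbp, a clock output factor, was at 9.27, 9.63, 10.69 and 10.85. The summed level of the clock list was 11.72 and 11.73 on the low-fat and 12.31 and 12.43 on the high-fat diet, with 6 of 13 genes 1.5-fold or more higher under each injection and 1, Cry1, 2.44-fold lower with PBS. The time of day at which the livers were taken is not given in the sources used here. The part of this shift in the Tpm2 result was not tested.

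**Figure D2:**
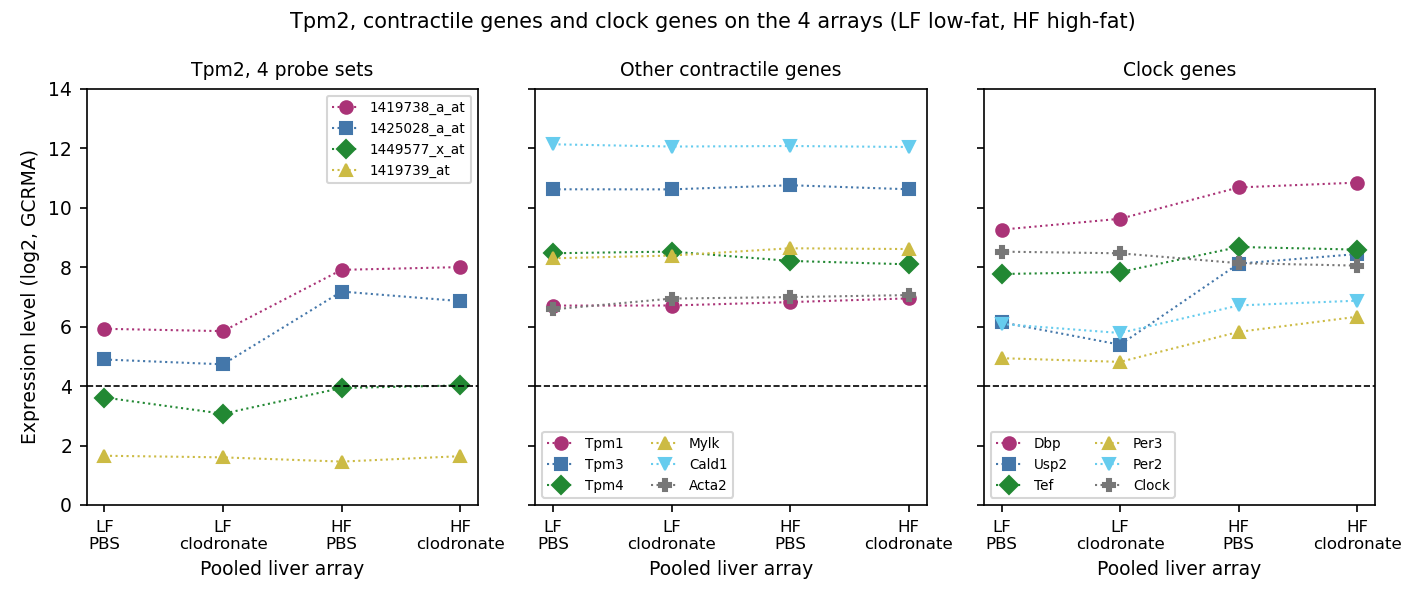
Levels (log2, vertical axis, dashed line at 4) on the 4 pooled arrays of the 4 Tpm2 probe sets, of other contractile genes and of 6 clock genes; dotted lines only join points of 1 probe set. The upper pair of Tpm2 probe sets steps up between the diets, as do Dbp from 9.27 to 10.69 and Usp2 from 6.15 to 8.12 with PBS, while Acta2 goes from 6.58 to 7.00.

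The promoter windows of Tpm2 and Acta2 are shown because Tpm2 was called for diet and Acta2, the classic contractile marker of stellate cells, was not, though the difference between the genes was not tested. Each is the 250 bases before the RefSeq start site (GRCm38.p6), read 5′ to 3′ on the gene's strand, with E-box hexamers (CANNTG, which reads the same on both strands) in capitals. Tpm2 lies at chr4:43523555-43523804 and Acta2 at chr19:34255374-34255623, both on the minus strand. The promoter table held 27 of the 40 genes.
Tpm2: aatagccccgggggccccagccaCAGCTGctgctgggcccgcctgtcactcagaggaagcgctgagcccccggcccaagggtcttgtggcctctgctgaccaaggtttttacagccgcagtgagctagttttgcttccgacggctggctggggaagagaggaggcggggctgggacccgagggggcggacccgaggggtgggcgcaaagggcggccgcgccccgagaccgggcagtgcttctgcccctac
Acta2: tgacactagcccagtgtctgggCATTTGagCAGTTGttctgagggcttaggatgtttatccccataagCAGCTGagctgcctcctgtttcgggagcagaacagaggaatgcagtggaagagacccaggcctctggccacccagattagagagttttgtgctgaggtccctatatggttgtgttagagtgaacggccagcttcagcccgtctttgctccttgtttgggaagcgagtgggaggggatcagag

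The Tpm2 window held 1 CANNTG hexamer and the Acta2 window 3, a motif found in 66.2% of 32841 windows of this length. The form CACGTG, a subset of CANNTG found in 6.02% of windows, had 0 matches in either. TATAAA, on both strands, occurred in 12.4% of windows and in neither of these. The Tpm2 window was richer in G and C, at 69.6% against 53.6% for Acta2 and a median of 52.4% over all windows.

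Fibrillar collagens, the rope-like collagens that accumulate in scars, did not pass the test. Col3a1 was at 8.09, 8.51, 8.31 and 8.43, lowest in the low-fat PBS pool. Its diet difference was 0.22 with PBS and -0.09 with clodronate, and its clodronate difference 0.42 and 0.11 (averaged clodronate effect 0.27 ± 0.22, n = 2). Col1a2, a chain of type I collagen, was at 4.86, 4.97, 4.96 and 4.57 by 1 of its 3 probe sets and below 3 by the others. The high-fat clodronate pool was the lowest, by 0.40 against each of the pools that differ from it in only the injection or the diet. Col1a1, the partner chain of type I collagen, was below 4 on every array by both its probe sets, at most at 3.34. Col5a2 was likewise dim, at most at 3.19, and Col5a1, at 4.34 in the low-fat PBS pool, was below 4 in the other pools.

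Of the 4 tested basement membrane genes, 0 were called for diet (limma, with 1 at an unadjusted p under 0.05, Col4a1). Col4a1, a chain of the sheet-forming type IV collagen, was at 8.20, 8.49, 8.00 and 8.01, with both low-fat pools above both high-fat pools. Its averaged diet effect was -0.34 ± 0.20 (n = 2; limma, Benjamini-Hochberg adjusted p = 0.424), and its other probe set gave -0.24 ± 0.05. Col4a2, its partner chain, was at 6.30, 6.59, 6.39 and 6.45, with a diet effect of -0.03 ± 0.17, so the low-fat and high-fat pools overlapped. Col18a1, whose C-terminal fragment is endostatin, was at 11.25, 11.40, 11.21 and 11.23, and Nid1, nidogen, which links laminin to type IV collagen, at 6.65, 6.68, 6.56 and 6.53. Lamc1, a laminin chain, was at most at 3.50. Of the microfibrillar and fibril-associated collagens, Col14a1 stayed between 8.33 and 8.50 and Col6a1 between 3.86 and 4.37, while Col6a2 and Col6a3 were below 4 on all arrays.

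The small proteoglycans bind collagen fibrils and set their diameter. Decorin (Dcn) was at 10.76, 10.92, 10.65 and 10.60, with the low-fat pools above the high-fat pools and a diet effect of -0.22 ± 0.15 (n = 2; limma, Benjamini-Hochberg adjusted p = 0.441). Biglycan (Bgn) stayed between 9.12 and 9.35 by its leading probe set, and all 3 of its probe sets were lowest in the high-fat clodronate pool. Lumican (Lum) was at 5.07, 4.82, 5.08 and 4.18. The high-fat clodronate pool stood below the other 3 pools, 1.87-fold below high-fat PBS and 1.57-fold below low-fat clodronate. Averaged over the diets, the clodronate effect on Lum was -0.57 ± 0.46 (n = 2; limma, Benjamini-Hochberg adjusted p = 1, with an unadjusted p of 0.048).

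Of the 6 tested matrix glycoproteins, 0 were called for either effect (limma, with 0 leading probe sets at an unadjusted p under 0.05). Fn1, fibronectin, was at 12.32, 12.48, 12.31 and 12.22, and its other probe set at 9.46, 9.48, 9.28 and 9.21, with diet effects of -0.13 ± 0.17 and -0.22 ± 0.07 (n = 2 each; limma, Benjamini-Hochberg adjusted p = 0.594 and 0.457). Reln, reelin, a secreted glycoprotein made by stellate cells, varied only between 9.37 and 9.41. Ecm1, extracellular matrix protein 1, which restrains activation of latent TGF-β, varied between 10.34 and 10.40. Colec11, a collectin of innate immunity, lay between 10.11 and 10.21. Sparc, a collagen-binding matricellular protein, was at 8.51, 8.88, 8.67 and 8.60, and its relative Sparcl1 at 4.53, 4.75, 4.99 and 5.06. In Sparcl1 both high-fat pools were above both low-fat pools, with a diet effect of 0.38 ± 0.10 (n = 2; limma, Benjamini-Hochberg adjusted p = 0.542).

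Of the remodelling genes, only Timp2 and Timp3 could be measured. Timp1, the inhibitor of matrix metalloproteinases best known from fibrotic liver, was at most at 2.22, and the gelatinase Mmp2 at most at 3.26. The collagen cross-linking enzymes Lox and Loxl1 were at most at 1.95 and 2.88. Timp2, which inhibits metalloproteinases and helps to activate Mmp2, was at 5.54, 5.20, 5.76 and 5.45 by its leading probe set. Each clodronate pool was below the PBS pool of its diet, by 0.34 and 0.31 (averaged clodronate effect -0.33 ± 0.02, n = 2; limma, Benjamini-Hochberg adjusted p = 1). The 3 Timp2 probe sets at 4 or more on all arrays had averaged clodronate effects of -0.33, -0.28 and -0.42, and averaged diet effects of 0.24, 0.16 and -0.41, which do not share a sign. A further probe set was at 4 or more only in the low-fat PBS pool, at 4.47, so its differences follow from the pool that admitted it. The probe set with the negative diet effect was at 4.88, 4.74, 4.75 and 4.05, with its high-fat clodronate value 1.62-fold below high-fat PBS. Kupffer cell markers fell in the same pools, as given above, and their part in the Timp2 and Lum values was not tested. Timp3, an inhibitor bound to the matrix, was at 5.10, 5.42, 5.63 and 5.47, with the low-fat pools below the high-fat pools (diet effect 0.29 ± 0.34, n = 2; limma, Benjamini-Hochberg adjusted p = 0.67).

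The growth factors and receptors that act on stellate cells did not pass the test either. Tgfb1, which drives matrix production, lay between 4.13 and 4.30, close to the floor. Hgf, hepatocyte growth factor, made by stellate cells and acting on hepatocytes, was at 6.04, 6.10, 5.85 and 6.07. Pdgfrb, the PDGF receptor of stellate cells, was at 7.18, 7.15, 6.94 and 7.09. Pdgfra, the other PDGF receptor, was at 4.81, 5.07, 4.58 and 4.29, with both low-fat pools above both high-fat pools. Its diet difference was -0.23 with PBS and -0.78, or 1.72-fold lower, with clodronate (averaged -0.50 ± 0.39, n = 2; limma, Benjamini-Hochberg adjusted p = 0.497). Rgs5, a regulator of G protein signalling in pericytes, was at 8.86, 9.03, 8.99 and 8.84. Its 4 probe sets had diet differences between 0.13 and 0.36 with PBS and between -0.42 and -0.12 with clodronate.

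The diet comparison within each injection gave few further differences of 1.5-fold or more. With PBS, 2 of 49 probe sets were higher, both of Tpm2, and 0 were lower, where 2.24% of all tested probe sets were higher and 1.47% lower. With clodronate the same 2 were higher and 3 were lower (Lum, Pdgfra and Timp2), against 1.61% and 5.54% of all. The 2 comparisons share no array. The median difference of the list was 0.01 with PBS, against 0.00 for all tested probe sets, and -0.14 with clodronate, against -0.08 for all. After centring each array on its median over tested probe sets, the values with clodronate were -0.01 for the list and 0.03 for all. Of the 3 lower probe sets, only that of Pdgfra was then still past 1.5-fold. Among leading probe sets, 16 of 28 (57.1%) differed in the same direction under both injections, as did 56.6% of all genes.

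**Figure D3:**
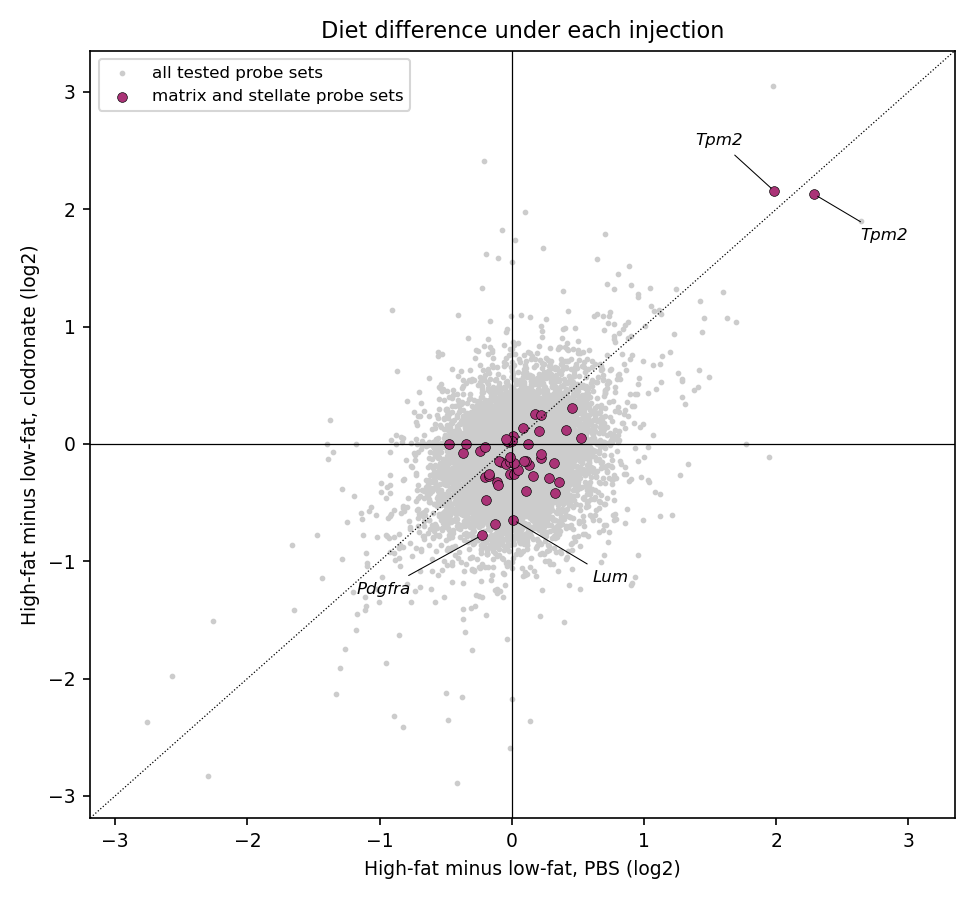
Difference between high-fat and low-fat pools (log2) with PBS (horizontal axis) and with clodronate (vertical axis) for all 14343 tested probe sets (grey) and the 49 of the list (purple); the dotted line marks equal differences. Of the list, Tpm2 lies apart at 1.98 and 2.16 and at 2.29 and 2.13, and Pdgfra and Lum are lower with clodronate, at -0.78 and -0.65.

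None of these genes passed the test for clodronate, which does not show that they were unchanged. At an adjusted p under 0.05, 0 of 49 probe sets were called (limma, with 1 at an unadjusted p under 0.05, that of Lum), where 0.0139% of all tested probe sets rose and 0.439% fell. That is 2 up and 63 down, and 18 and 120 with centred arrays. On the low-fat diet 0 probe sets of the list were 1.5-fold or more higher and 0 lower, against 2.29% and 1.37% of all. On the high-fat diet 0 were higher and 2 lower (Lum and Timp2), against 0.697% and 2.94% of all. The median difference was 0.09 on the low-fat diet, where that of all tested probe sets was 0.05, and -0.02 on the high-fat diet, where that of all was -0.04. The low-fat clodronate pool had the highest level for 13 of 28 leading probe sets (46.4%), as it did for 36.6% of all genes. The high-fat clodronate pool had the lowest level for 10 of 28 (35.7%) and for 3462 of 8650 genes in all. The leading probe sets of Col1a2, Bgn and Lum were among those lowest there, as was that of Crtap, a gene outside the list described below.

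**Figure D4:**
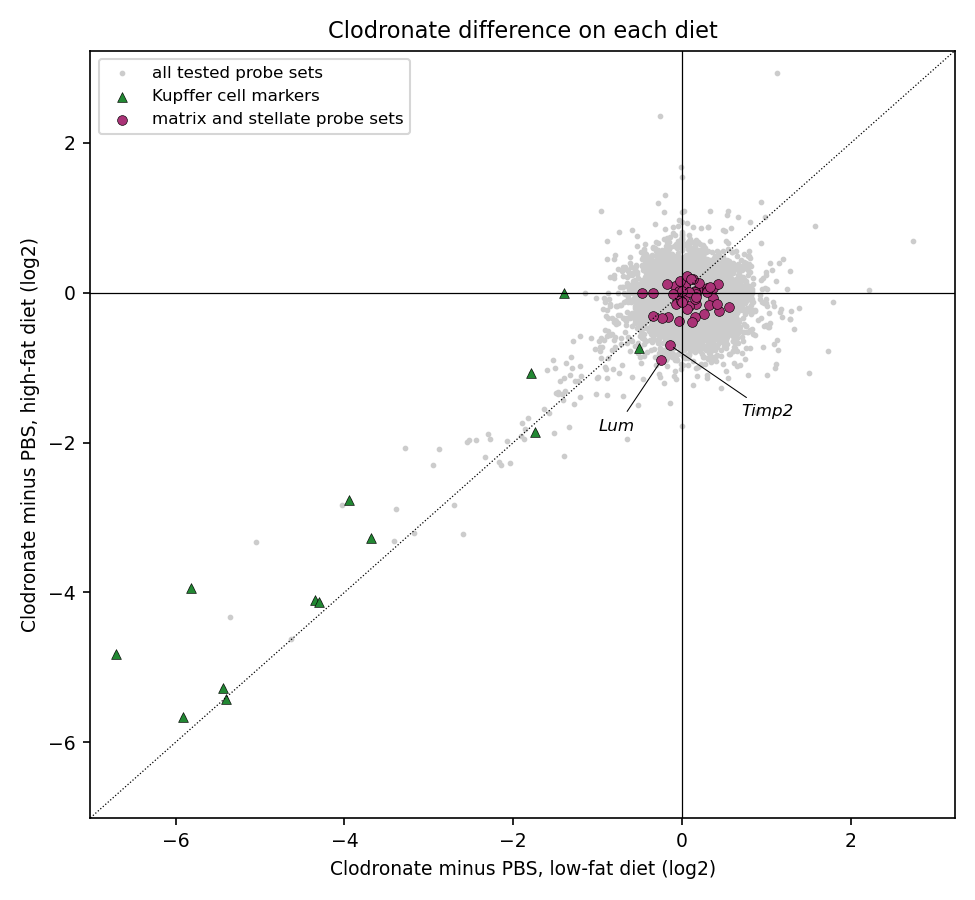
Difference between clodronate and PBS pools (log2) on the low-fat (horizontal axis) and the high-fat diet (vertical axis), with levels under 4 taken as 4, for all tested probe sets (grey), Kupffer cell markers (green triangles) and the list (purple). The list stays between -0.47 and 0.55 along the horizontal and between -0.90 and 0.23 along the vertical axis, while Kupffer cell markers reach -6.71 and -5.66.

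Further genes of the same pathways were taken from 5 lists, for TGF-β signalling, PDGF and HGF signalling, collagen processing, matrix proteases and other matrix proteins. They held 51 tested genes, of which 0 were called for diet and 0 for clodronate (limma with Benjamini-Hochberg adjustment, with 11 and 2 at an unadjusted p under 0.05). Of all tested probe sets, 10.6% were at an unadjusted p under 0.05 for diet and 3.71% for clodronate (limma). The lists, however, hold 1 probe set per gene. In a fit of that kind, 1141 of 8650 genes were under 0.05 for diet and 410 for clodronate (limma, unadjusted). In the TGF-β list, 13 genes were tested, with 4 at an unadjusted p under 0.05 for diet (limma). Their averaged diet effects were -0.30 for Smad4, -0.53 for Skil, -0.27 for Itgav and -0.31 for Tgfbr1. The averaged diet effect was also below 0 for 8748 of all 14343 tested probe sets. Smad3, a transducer of the signal, was at 4.57, 5.31, 4.80 and 5.21, with both clodronate pools above both PBS pools. Pdgfc, a ligand of Pdgfra, was 1.62-fold lower on the high-fat diet with PBS and 2.33-fold lower with clodronate, at 6.81, 6.66, 6.11 and 5.45 (limma, Benjamini-Hochberg adjusted p = 0.169). Crtap, a part of the complex that hydroxylates collagen prolines, was at 5.38, 5.81, 5.11 and 4.43. Its high-fat clodronate value was 2.60-fold below the low-fat clodronate value. P4ha2, a prolyl hydroxylase subunit, was at 4.77 in the high-fat PBS pool and at 4.01 in the high-fat clodronate pool, 1.70-fold lower.

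Among 7 tested proteases, Mmp19 was at 6.38, 6.13, 6.84 and 6.94, with both high-fat pools above both low-fat pools (limma, Benjamini-Hochberg adjusted p = 0.274). Postn, periostin, a matricellular protein of activated fibroblasts, was at 5.75, 6.20, 6.71 and 6.76, or 1.95-fold and 1.47-fold higher on the high-fat diet (limma, Benjamini-Hochberg adjusted p = 0.229). Dpt, dermatopontin, was at 3.72, 4.05, 4.61 and 3.92, highest in the high-fat PBS pool.

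Stellate cell markers outside the list gave a similar picture. Of 17 with a probe set, 9 were tested and 0 were called (limma, with 2 and 1 at an unadjusted p under 0.05 for diet and clodronate). Lrat, which esterifies retinol for storage, was at 7.26, 7.35, 7.23 and 7.48. Tcf21, a transcription factor of these cells, was at 7.15, 7.58, 6.75 and 7.03, with the low-fat pools above the high-fat pools. Vipr1, a receptor for vasoactive intestinal peptide, was at 5.83, 5.89, 5.52 and 5.19, 1.62-fold lower on the high-fat diet with clodronate. Of 15 sinusoidal endothelial markers, 0 were called (limma, with 0 at an unadjusted p under 0.05 for either effect). In the high-fat pools, Pecam1, an endothelial adhesion molecule, was 1.68-fold lower with clodronate than with PBS, and Lyve1, a hyaluronan receptor, 1.56-fold higher. Cholangiocyte markers were nearly all dim, with 1 of 5 tested, Sox9.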

How the data were processed

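The deposited table held 45101 probe sets on 4 arrays in log2 units. The authors' values are GCRMA output (version 2.24.1 in the submitters' processing notes); genome build and array annotation are not given in the sources used here. Scale was taken from the notes and the range of values, and no scanner files were used. A probe set was tested if it had 1 symbol in the supplied platform annotation and was at 4 or more on at least 1 array.

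The effects of diet and clodronate, each averaged over the other, were fitted with limma 3.58.1 (R 4.3.3) in an additive model on values as deposited, with eBayes and a mean-dependent prior, and Benjamini-Hochberg adjustment at 0.05 over 14343 probe sets. This leaves 1 residual degree of freedom, against a median of 4.97 prior degrees of freedom. Pairs of arrays were compared without a test, after levels under 4 were set to 4. In data simulated for the diet effect (14343 probe sets, 20 runs, 200 changed), 88.2% of 2-fold and 100% of 4-fold changes were recovered, and 15.3% of calls were unchanged probe sets. With a constant prior these were 10.8%, 92.2% and 0.483%. The 15.3% is above the limit of 0.05 set for the adjusted p. The simulated noise came from residuals of probe sets of like level, with random signs, drawn separately for each value. Simulated probe sets of like level therefore did not differ in their true spread, as real ones may. Shifts of a whole array were not simulated either, so these rates may not hold for the real arrays.

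The members, the gene lists and the tests were chosen with earlier results of these data known. Members were given by array if they passed a test, differed 1.5-fold in a pair or were main genes of their role, and of each other list up to 4 genes were named, those called and then those with the largest pair difference. Col4a2, Col18a1, Nid1, Sparcl1, Col5a1, Clec4f, Lrat, Smad4, Itgav, Tgfbr1, Ckm and Acta1 fall outside this rule and were chosen after their values were seen. Python 3.11.15, pandas 2.3.3 and matplotlib 3.10.9 were used for figures.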

Additional observations from a re-analysis of the deposited data

Results flagged for a closer look

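Some differences of leading probe sets had opposite signs, each beyond 0.1 on the log2 scale, in the 2 settings of a contrast. With 1 pool per group, none of these differences between settings was tested. Such changes were not particular to the list. Without the limit of 0.1, the sign of the clodronate difference matched between the diets for 13 of 28 leading probe sets (46.4%). Among all genes it matched for 43.7%. The sign of the diet difference matched between the injections for 57.1% of the list and 56.6% of all genes. A difference of 0 was not taken as a match. After clodronate, the low-fat and high-fat differences were 0.12 and -0.40 for Col1a2, -0.18 and 0.12 for Col6a1, 0.26 and -0.29 for Pdgfra, 0.17 and -0.14 for Rgs5, and 0.32 and -0.16 for Timp3. For diet, the differences with PBS and with clodronate were 0.11 and -0.40 for Col1a2, 0.13 and -0.18 for Rgs5, 0.16 and -0.27 for Sparc, and 0.11 and -0.14 for Tgfb1. The sign change was not seen in every probe set of these genes. The other 2 tested probe sets of Timp3 had clodronate differences of 0.11 and 0.19, and of 0.13 and 0.19, in the same order. The other tested probe set of Sparc, with a mean of 8.64 against 8.67, had diet differences of -0.17 and -0.26. The clodronate and diet values of Col1a2 and of Rgs5 use the same 4 arrays. All these values were taken without centring. After centring each array, the median clodronate difference of all tested probe sets went from 0.046 to -0.016 with low-fat food. With high-fat food it went from -0.042 to 0.031. The median diet difference went from 0.00 to -0.016 with PBS and from -0.083 to 0.031 with clodronate. Opposite signs beyond 0.1 may therefore depend on array scaling. Whether they remain after centring was not tested.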

How the results depend on the processing

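The called Tpm2 probe sets lost their call under 2 alternatives, the constant prior and no filter. Changes of prior, filter or probe set number leave the estimate itself as it was, so they cannot test its direction. With centred arrays the diet effects were 2.12 and 2.26, and after quantile normalization 2.13 and 2.27. No paired analysis was possible because each group is 1 pool, and leaving out an array leaves no residual degree of freedom. Without the mean-dependent prior, calls over all probe sets went from 60 to 0 for diet (0 of the list) and from 65 to 10 for clodronate. Without a filter on low values they were 0 for diet (0 of the list; 2118 at an unadjusted p under 0.05 in limma) and 43 for clodronate, and with 4 or more required on all arrays 39 and 23. Centring each array gave 359 and 138, quantile normalization 234 and 101, and 1 probe set per gene 146 for diet (1 of the list). The cause was not tested.

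Differences of 1.5-fold or more in the list numbered 0, 2, 2 and 5 for clodronate on the low-fat and high-fat diet and for diet with PBS and with clodronate. A floor of 3 in place of 4 gave 2 for clodronate on the low-fat diet and 4 for diet with PBS. A floor of 5, or a 2-fold limit, gave 0 for clodronate on the high-fat diet and 2 for diet with clodronate, where centring, quantile normalization and 1 probe set per gene each gave 3. With 1 probe set per gene there was 1 for clodronate on the high-fat diet and 1 for diet with PBS. Averaging all tested probe sets of a gene moved 6 of 56 averaged effects by over 0.1, and 4 changed sign. Diet differences became 1.64 for Tpm2, -0.14 for Timp2, 0.08 for Hgf (from -0.11), 0.00 for Col14a1 (from 0.11) and 0.18 for Timp3 (from 0.29), and the clodronate difference of Tpm2 went from 0.01 to -0.16. Precision is limited by the number of arrays.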
